A study of Homo sapiens with 8 samples.

Results

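Excision repair and mismatch repair remove damaged or mispaired bases from DNA, and direct repair restores alkylated bases in place. In general these routes do not pass through a break of both strands. The transcripts of 40 genes chosen by name, from these pathways and from the enzymes that clean blocked strand ends, were followed in U251 cells. The deposited table holds 61906 genes. Each symbol matched exactly 1 row. U251 is a human glioblastoma cell line, here of wild type genotype by its label, and LLY-283 blocks PRMT5, which methylates arginine residues of many proteins, among them splicing factors. Poly(A) RNA was sequenced from 4 cultures that received vehicle (DMSO) and 4 that received 100 nM LLY-283 for 24 h, all labelled as biological replicates of this 1 line with no other treatment named in the labels. The study asked whether PRMT5 is a target for making tumor cells more sensitive to radiation, and the transcriptome was measured to look for possible mechanisms.

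In base excision repair, a glycosylase cuts 1 kind of altered base from its sugar, after which APEX1 opens the strand and a polymerase and ligase fill and seal the gap. Nucleotide excision repair removes a bulky lesion inside a short stretch of the strand, either wherever XPC or DDB2 finds it or where an RNA polymerase has stalled. Mismatch repair corrects errors left by replication, and direct repair reverses the damage in place, as MGMT does for alkylated guanine, a lesion that matters in glioblastoma because it is produced by temozolomide.

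Values are TPM (a transcript's share of its library after division by transcript length, scaled to a sum of 1000000), so levels of different genes can be compared. TPM keeps no record of read number, so sequencing depth is unknown and counting error cannot be given. Each library summed to 1000000 or 1000001 TPM, and between 24042 and 24757 genes were above 0. The line expressed VIM (mean of 4301 TPM in vehicle), GFAP (810 TPM), NES (483 TPM) and SOX2 (103 TPM), all known from glioma cells, and S100B at 4.33 TPM, while PTPRC, EPCAM and PECAM1, which mark leukocytes, epithelium and endothelium, did not exceed 0.1 TPM in any library. PRMT5 itself was at 100.0 ± 5.03 TPM with vehicle and 100.4 ± 4.91 TPM with LLY-283 (SD, n = 4 each). LLY-283 replicate 4 stood apart from the other libraries, with 7.19% of its TPM from genes of the mitochondrial genome against 10.2% to 11.0% in the other 7, and values without it are given below.

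With vehicle, 39 of the 40 members were expressed at a mean above 1 TPM and were tested, and the remaining member was MGMT. The highest level was that of APEX1, the endonuclease of abasic sites, at 186 ± 3.26 TPM (SD, n = 4). RAD23B, which stabilizes XPC, followed at 133 ± 0.922 TPM and PARP1, the sensor of strand breaks, at 130 ± 2.46 TPM, and the values of these 2 genes overlapped. DDB1 (96.4 ± 3.40 TPM), MSH6 (83.1 ± 3.46 TPM) and UNG (77.4 ± 1.64 TPM) each lay apart from their neighbours in the order. From ERCC1 (60.4 TPM) down to DDB2 (44.1 TPM) and CETN2 (42.5 TPM), every gene overlapped with the next. The lowest tested levels were those of ERCC4 (6.70 ± 0.436 TPM), ERCC6 (5.30 ± 0.633 TPM) and NEIL1 (3.00 ± 0.386 TPM). The summed level of the 40 members lay between 1696 and 1710 TPM in the vehicle libraries and between 1651 and 1677 TPM in the LLY-283 libraries. This separation depended on scaling, since after median-of-ratios scaling the sums overlapped, at 1655 to 1694 TPM and 1667 to 1726 TPM.

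**Figure D1:**
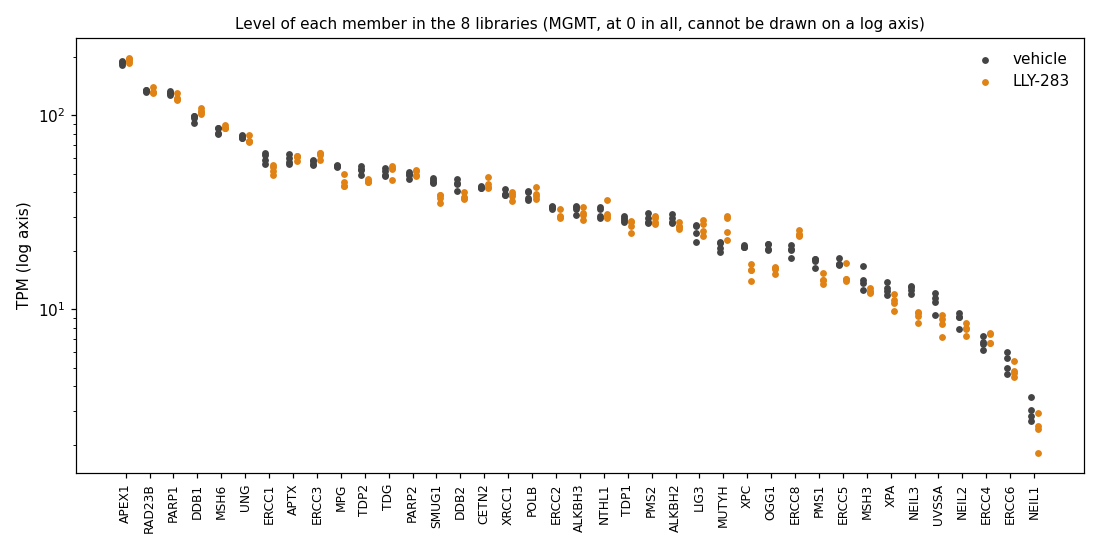
TPM (log axis) of the 39 tested members in each of the 4 vehicle (dark) and 4 LLY-283 (orange) libraries, ordered by the vehicle mean. Levels ran from APEX1 at 186 TPM to NEIL1 at 3.00 TPM, and for most members the points of both groups lie close together.

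LLY-283 treatment was followed by small changes in part of these genes. NEIL3, XPC and OGG1 showed the largest decreases and MUTYH and ERCC8 the largest increases. The mean of NEIL3 decreased by 27.2%, that of XPC decreased by 25.6% and that of OGG1 decreased by 23.4%, while MUTYH was 27.4% and ERCC8 22% higher. At an adjusted p-value under 0.05 (limma on log2(TPM + 0.1), Benjamini-Hochberg adjustment over the 14478 genes tested), 12 of the 39 tested members were decreased and 4 were increased, together 41%. Over all genes tested, 17.6% were decreased and 8.61% increased, together 26.2%. The balance of directions depended on scaling. Median-of-ratios scaling gave 1866 decreased and 1927 increased genes, 9 and 5 of them members, and quantile normalization 1820 and 1871, 10 and 5 of them members. After correction for GC content and transcript length, 1602 genes were decreased and 2742 increased (30% in either direction), among them 7 and 6 members, so that the members' share lay near the background. This correction also sets the libraries to a common mean log2 level. Calls lost or gained under it therefore cannot be assigned to GC content and length alone. No member differed by more than 1.5-fold, a size that 3.48% of all genes passed as decreases and 0.394% as increases, all with an adjusted p-value under 0.05. Of the 39 members, 25 were lower with LLY-283, against 60.2% of all genes, and their median log2 fold change was -0.08, against -0.05 over all genes. After the same correction 19 were lower, and the medians were 0.0021 and 0.03. For 14 members, the 4 values with vehicle lay wholly apart from the 4 with LLY-283, 10 of them lower and 4 higher (29.2% of all genes, 19.6% lower and 9.63% higher). Members were expressed at a median of 31.9 TPM against 17.1 TPM for all genes tested. When the minimum mean was raised to 5 TPM, 13 of 38 members were decreased and 4 increased, against 30.7% of all genes in either direction. Without LLY-283 replicate 4, 13 members were decreased and 4 increased, against 28.8% of all genes.

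**Figure D2:**
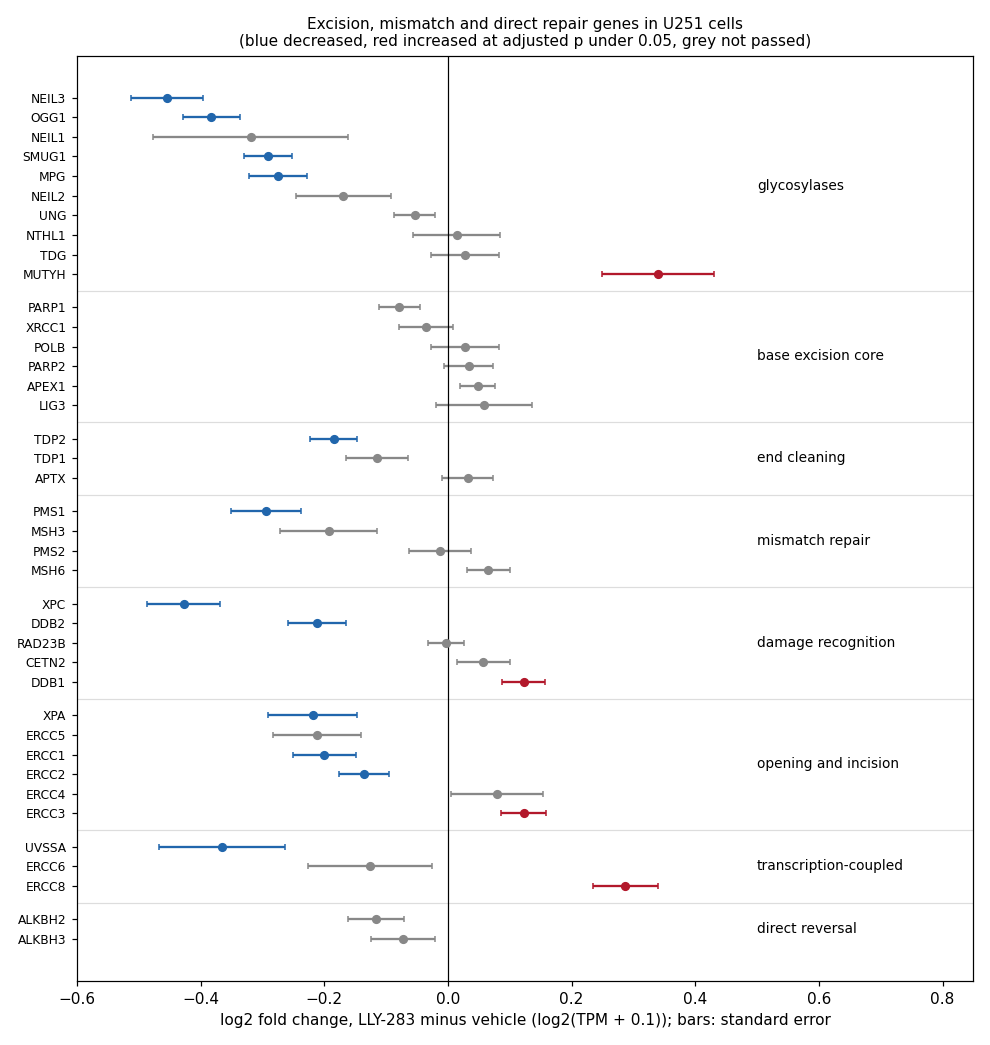
Log2 fold change of each tested member (point) with its standard error (bar), LLY-283 minus vehicle, grouped by role. The 12 members decreased at an adjusted p-value under 0.05 are blue, the 4 increased red and the other 23 grey. The glycosylases spread from -0.45 (NEIL3) to 0.34 (MUTYH), whereas all 6 genes of the base excision core lie near 0.

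The glycosylases held the largest changes in both directions. Of 10 genes, 4 were decreased (NEIL3, OGG1, SMUG1 and MPG), 1 was increased (MUTYH) and 5 did not pass the test, against 17.6% and 8.61% of all genes decreased and increased. Their median log2 fold change was -0.22. Summed over the group, the level was 324 to 328 TPM in the vehicle libraries and 297 to 308 TPM in the LLY-283 libraries.

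OGG1 (ENSG00000114026, chromosome 3, 9749944 to 9788219 of GRCh38) cuts 8-oxoguanine, the main oxidized form of guanine, from its pair with cytosine. OGG1 was at 20.09, 20.43, 21.61 and 21.58 TPM in vehicle replicates 1 to 4 and at 15.16, 16.57, 16.03 and 16.35 TPM in LLY-283 replicates 1 to 4. Every LLY-283 value lay below every vehicle value. On the log2 scale OGG1 fell by 0.38 ± 0.046 (standard error; adjusted p = 0.000496, limma). OGG1 overlaps TADA3 and CAMK1 on the opposite strand, where reads of both strands may not be told apart. TADA3, at 97.9 TPM, had a log2 fold change of -0.0007 (adjusted p = 0.992), and CAMK1, at 16.1 TPM and with the longer overlap, one of -0.17 (adjusted p = 0.129), in the direction of OGG1.

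MUTYH (ENSG00000132781, chromosome 1, 45329163 to 45340893) acts on the same lesion at a later stage, by removing the adenine that replication places opposite 8-oxoguanine. Its values were 19.74, 21.98, 20.56 and 22.29 TPM with vehicle and 30.31, 29.66, 24.99 and 22.79 TPM with LLY-283. The groups did not overlap, but the LLY-283 libraries were spread, with replicate 4 only just above the highest vehicle value. The increase on the log2 scale was 0.34 (standard error 0.091, adjusted p = 0.0225, limma), and it no longer passed without vehicle replicate 1 or 3 or LLY-283 replicate 1 or 2 (adjusted p between 0.0577 and 0.0678) or without a filter on low values (0.0550). TOE1, which overlaps it on the opposite strand, had a log2 fold change of -0.12 (adjusted p = 0.0845). Within a library, the ratio of MUTYH to OGG1 does not depend on the scaling of that library. This ratio was 0.983, 1.08, 0.951 and 1.03 in the vehicle libraries and 2.00, 1.79, 1.56 and 1.39 in the LLY-283 libraries.

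NEIL3 (ENSG00000109674, chromosome 4, 177309874 to 177362936), a glycosylase of oxidized bases that also acts on single-stranded DNA and is expressed in proliferating cells, had the largest decrease of all members. NEIL3 was at 13.20, 12.59, 12.95 and 11.98 TPM with vehicle and at 9.17, 9.69, 9.57 and 8.50 TPM with LLY-283. The groups were well apart, and NEIL3 fell by 0.45 ± 0.059 on the log2 scale (standard error; adjusted p = 0.000704). SMUG1, which removes uracil and its oxidized forms, fell from 44.95, 45.19, 46.26 and 47.44 TPM to 38.66, 38.75, 37.46 and 35.40 TPM, again with no overlap (log2 fold change -0.29, adjusted p = 0.000824, and -0.19 after correction for GC content and length). MPG, the glycosylase of alkylated purines, stood at 54.35, 55.31, 54.46 and 53.84 TPM with vehicle and at 42.93, 45.02, 42.96 and 49.51 TPM with LLY-283. The highest of the LLY-283 values of MPG was replicate 4, and it still lay below the vehicle values. The decrease of MPG passed the test (log2 fold change -0.27, standard error 0.047, adjusted p = 0.00284), and correction for GC content and length brought it to -0.17 (adjusted p = 0.0415, or 0.0750 with a replicate block). NPRL3, which overlaps the 3' end of MPG on the opposite strand, moved the other way (log2 fold change 0.15, adjusted p = 0.0139).

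The 5 glycosylases that did not pass included UNG (log2 fold change -0.05), the main uracil glycosylase, and TDG (0.03), which acts on thymine and uracil mispaired with guanine. NTHL1, which removes oxidized pyrimidines, had a log2 fold change of 0.01 with a 95% confidence interval of -0.14 to 0.17. NEIL1 and NEIL2, also glycosylases of oxidized bases, were lower by 0.32 and 0.17 on the log2 scale with wide errors (standard errors 0.158 and 0.077, adjusted p = 0.169 and 0.136), at levels of 3.00 and 8.92 TPM with vehicle. Without LLY-283 replicate 4, UNG passed as a decrease (log2 fold change -0.08, adjusted p = 0.0452).

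Where 26.2% of all genes passed in either direction, none of the 6 members of the base excision core, which act after the glycosylase, passed the test. Their log2 fold changes lay between -0.08 and 0.06, and their summed level was 466 to 474 TPM with vehicle and 458 to 480 TPM with LLY-283. PARP1 had the smallest p-value of the group. It was at 133.38, 129.66, 130.04 and 127.43 TPM with vehicle and at 119.44, 122.69, 120.44 and 130.61 TPM with LLY-283. Replicates 1 to 3 of LLY-283 lay below all vehicle values and replicate 4 lay among them (log2 fold change -0.08, adjusted p = 0.119). Without LLY-283 replicate 4, PARP1 passed as a decrease (log2 fold change -0.11, adjusted p = 0.0108), and so it did under quantile normalization (adjusted p = 0.0453) and with mitochondrial genes left out (adjusted p = 0.0404). With median-of-ratios scaling its log2 fold change was -0.03 (adjusted p = 0.565), and after correction for GC content and length it was -0.01 (adjusted p = 0.879). For APEX1 the 95% confidence interval of the log2 fold change was -0.01 to 0.11, for POLB, the gap-filling polymerase, -0.09 to 0.15, and for XRCC1, the scaffold that holds the ligase LIG3, -0.13 to 0.06. LIG3 itself had an interval of -0.12 to 0.23, and PARP2, which acts beside PARP1, one of -0.06 to 0.12. After correction for GC content and transcript length, APEX1 (log2 fold change 0.16, adjusted p = 0.00939) and PARP2 (0.13, adjusted p = 0.0390) passed as increases. Of 9 further base excision genes outside the members, 2 were decreased and 1 increased. APEX2 was among the decreases (log2 fold change -0.32, adjusted p = 0.00414, limma), and PARG was the increase (0.27, adjusted p = 0.00505).

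Among the enzymes that clean blocked strand ends, TDP2, which releases DNA from trapped topoisomerase II, was decreased. TDP2 was at 54.47, 51.87, 49.15 and 52.69 TPM in the vehicle libraries and at 47.08, 45.22, 45.09 and 45.61 TPM in the LLY-283 libraries, with no overlap (log2 fold change -0.18, standard error 0.038, adjusted p = 0.00677). TDP1, which acts on trapped topoisomerase I, had a log2 fold change of -0.11, with values of 28.27 to 30.30 TPM with vehicle and 24.70 to 28.43 TPM with LLY-283. APTX, which repairs aborted ligations, had one of 0.03. Removal of the GC content and length trend ended the call of TDP2 (log2 fold change -0.10, adjusted p = 0.107).

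In mismatch repair, 1 of the 4 genes was decreased, a share near that of all genes (26.2% in either direction). PMS1, a MutL homolog, was at 16.21, 18.20, 18.10 and 17.66 TPM with vehicle and at 15.37, 14.15, 13.55 and 14.08 TPM with LLY-283. All LLY-283 values were lower than all vehicle values, and PMS1 fell by 0.29 ± 0.056 on the log2 scale (standard error; adjusted p = 0.00493). PMS2, the MutL homolog with the nuclease of the pathway, had a log2 fold change of -0.01 (95% confidence interval -0.13 to 0.10); it has near-identical pseudogene copies between which reads can be divided, so its level is uncertain. MSH6, which recognizes single mispaired bases, and MSH3, which recognizes small loops, had log2 fold changes of 0.07 (adjusted p = 0.196) and -0.19 (adjusted p = 0.101). MSH6 passed as an increase with median-of-ratios scaling (adjusted p = 0.0405), and MSH3 as a decrease without vehicle replicate 1 (log2 fold change -0.25, adjusted p = 0.0467). Without vehicle replicate 3, MSH3 had a log2 fold change of -0.12 (adjusted p = 0.179), and under quantile normalization one of -0.10 (adjusted p = 0.345). The ratio of PMS1 to PMS2 was 0.579 to 0.650 with vehicle and 0.467 to 0.545 with LLY-283.

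Of the 5 factors that find lesions in nucleotide excision repair, 3 passed the test, against 26.2% of all genes in either direction. XPC and DDB2 were decreased, DDB1 was increased, and RAD23B and CETN2 did not pass the test. XPC (ENSG00000154767, chromosome 3, 14145147 to 14178621) senses distorted DNA across the genome. XPC was at 20.94, 21.54, 20.96 and 21.00 TPM with vehicle and at 15.97, 15.84, 17.07 and 13.96 TPM with LLY-283. The vehicle values were within 0.60 TPM of each other and the LLY-283 values lay far below them, lowest in replicate 4 (log2 fold change -0.43, standard error 0.059, adjusted p = 0.000984). Its partners RAD23B (log2 fold change -0.003, 95% confidence interval -0.07 to 0.06) and CETN2 (0.06, interval -0.04 to 0.15) did not pass the test. Within each library, the ratio of XPC to RAD23B was 0.156 to 0.161 with vehicle and 0.10 to 0.13 with LLY-283, and that of XPC to CETN2 was 0.486 to 0.512 and 0.292 to 0.385.

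DDB2, which binds ultraviolet photoproducts and hands them to XPC, was at 44.68, 46.72, 44.12 and 40.71 TPM with vehicle and at 37.03, 37.41, 37.65 and 39.97 TPM with LLY-283. The groups were separated by less than 1 TPM, between vehicle replicate 4 and LLY-283 replicate 4 (log2 fold change -0.21, standard error 0.047, adjusted p = 0.0102). The adaptor DDB1, which joins DDB2 to the CUL4 ubiquitin ligases and serves many other substrate receptors, was at 96.68, 91.54, 98.88 and 98.58 TPM with vehicle and at 104.27, 101.38, 105.27 and 108.93 TPM with LLY-283. Every LLY-283 library was higher (log2 fold change 0.12, standard error 0.035, adjusted p = 0.0297). Correction for GC content and length brought DDB1 to 0.20 (adjusted p = 0.00479). The call of DDB1 was lost without vehicle replicate 1 or 2 or LLY-283 replicate 1 or 3 (adjusted p between 0.0568 and 0.0662), without a filter on low values (0.0573) and with eBayes without a trend (0.0589). That of DDB2 was lost after removal of the GC content and length trend (log2 fold change -0.12, adjusted p = 0.0942). The ratio of DDB2 to DDB1 ranged from 0.413 to 0.510 with vehicle and from 0.355 to 0.369 with LLY-283.

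Of the 6 genes that verify the lesion, open the strand and cut it, 3 were decreased (XPA, ERCC1 and ERCC2), 1 was increased (ERCC3) and 2 did not pass. Among all genes tested, 17.6% were decreased and 8.61% increased. ERCC1, the partner of the nuclease ERCC4, was at 56.05, 64.05, 62.42 and 59.00 TPM with vehicle and at 51.80, 53.88, 49.27 and 55.14 TPM with LLY-283, with no overlap (log2 fold change -0.20, standard error 0.051, adjusted p = 0.0185). ERCC4 was at 6.18 to 7.24 TPM and 6.66 to 7.53 TPM, so that ERCC1 exceeded its partner about 9.05-fold with vehicle and 7.46-fold with LLY-283. ERCC4 had a log2 fold change of 0.08 (adjusted p = 0.465), and it passed as an increase under quantile normalization (0.21, adjusted p = 0.0423). The decrease of ERCC1 did not pass without vehicle replicate 2 or 3 (adjusted p = 0.0519 and 0.0555), with median-of-ratios scaling (0.0560) or after removal of the GC content and length trend (log2 fold change -0.12, adjusted p = 0.0874). POLR1G, which overlaps ERCC1 on the opposite strand, was higher by 0.21 (adjusted p = 0.0396).

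Both DNA translocases of the transcription factor TFIIH passed, in opposite directions. ERCC2 (XPD), the helicase, was at 32.74, 33.61, 33.69 and 34.12 TPM with vehicle and at 29.77, 32.67, 30.28 and 29.41 TPM with LLY-283. Only 0.07 TPM separated vehicle replicate 1 from LLY-283 replicate 2 (log2 fold change -0.14, adjusted p = 0.0354). ERCC3 (XPB) was at 58.69, 55.19, 56.03 and 58.21 TPM with vehicle and at 63.95, 62.00, 63.47 and 58.99 TPM with LLY-283. Its groups were likewise only just apart, at LLY-283 replicate 4 (log2 fold change 0.12, adjusted p = 0.0357). These 2 calls were fragile. ERCC2 did not pass under quantile normalization (adjusted p = 0.0930), median-of-ratios scaling (0.124), without a filter on low values (0.0615), with a replicate block (0.0590) or after correction for GC content and length, which brought its log2 fold change to -0.07 (0.195), and the same correction brought ERCC3 to 0.20 (0.00255). That of ERCC2 did not pass without any 1 library other than LLY-283 replicate 2 (adjusted p between 0.0508 and 0.0885), nor that of ERCC3 without vehicle replicate 2, 3 or 4 or LLY-283 replicate 1, 2 or 3 (adjusted p between 0.0562 and 0.0875). ERCC3 also did not pass without a filter on low values (0.0641), with eBayes without a trend (0.0601), with a replicate block (0.0628) or with mitochondrial genes left out (0.0889).

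XPA, which verifies the damage, was at 13.80, 12.87, 11.85 and 12.34 TPM with vehicle and at 10.81, 11.91, 11.18 and 9.78 TPM with LLY-283. Vehicle replicate 3 lay below LLY-283 replicate 2, so the groups overlapped. The adjusted p-value of 0.0499 (log2 fold change -0.22, standard error 0.072) was the closest to the threshold among the passed members, and it was above the threshold without any 1 library other than LLY-283 replicate 2 (0.0542 to 0.128), as it was under median-of-ratios scaling (0.107), quantile normalization (0.235) and correction for GC content and length (0.236), the last 2 of which brought the log2 fold change to -0.12. ERCC5, the nuclease that cuts on the other side of the lesion from ERCC4, missed the threshold (log2 fold change -0.21, adjusted p = 0.0528). LLY-283 replicates 2 to 4 of ERCC5 lay between 13.98 and 14.37 TPM, below the vehicle range of 16.89 to 18.28 TPM, and LLY-283 replicate 1 lay within that range at 17.36 TPM. Without that library the decrease passed (log2 fold change -0.28, adjusted p = 0.00532).

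In the transcription-coupled branch, which starts where RNA polymerase II is stalled, ERCC8 was increased and UVSSA decreased. ERCC8 (ENSG00000049167, chromosome 5, 60866454 to 60945073), also called CSA, is the substrate receptor of a ubiquitin ligase built on DDB1. ERCC8 was at 21.40, 20.36, 18.37 and 20.17 TPM with vehicle and at 24.21, 24.32, 25.71 and 23.72 TPM with LLY-283. All LLY-283 values exceeded all vehicle values (log2 fold change 0.29, standard error 0.052, adjusted p = 0.0040). UVSSA, which brings TFIIH to the stalled polymerase, was at 9.30, 12.09, 10.89 and 11.36 TPM with vehicle and at 8.40, 9.33, 8.92 and 7.15 TPM with LLY-283. LLY-283 replicate 2 lay just above vehicle replicate 1, so the groups overlapped (log2 fold change -0.37, standard error 0.102, adjusted p = 0.0267). The call of UVSSA was lost without vehicle replicate 2, 3 or 4 or LLY-283 replicate 1 (adjusted p between 0.0595 and 0.0770), under quantile normalization (log2 fold change -0.26, adjusted p = 0.0697) and without a filter on low values (0.0626). ERCC6, also called CSB, the ATPase that recruits ERCC8, was at a low level and had a log2 fold change of -0.13 (95% confidence interval -0.35 to 0.10).

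**Figure D3:**
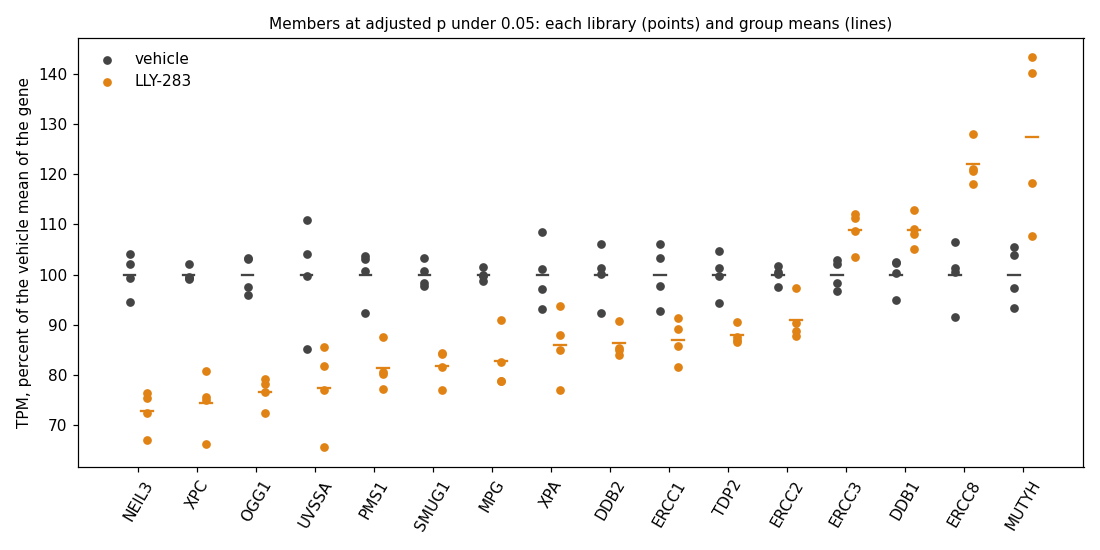
The 16 members with an adjusted p-value under 0.05, each library as a point in percent of the vehicle mean of the gene, with group means as lines. NEIL3, XPC and OGG1 with LLY-283 lie wholly below vehicle, UVSSA and XPA overlap, and the LLY-283 libraries of MUTYH are the most spread of the increased genes.

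For direct reversal, MGMT (ENSG00000170430, chromosome 10, 129467190 to 129770983), which takes alkyl groups from guanine onto its own cysteine, was listed at 0 in all 8 libraries. No fold change can be given for it. ALKBH2 and ALKBH3, which oxidize methyl groups off adenine and cytosine, were both expressed. ALKBH2 was at 28.08, 29.45, 27.93 and 30.78 TPM with vehicle and at 26.71, 25.75, 26.46 and 28.24 TPM with LLY-283. Only LLY-283 replicate 4 reached the vehicle range (log2 fold change -0.12, adjusted p = 0.0885), and without it ALKBH2 passed as a decrease (log2 fold change -0.14, adjusted p = 0.0398). ALKBH3 had a log2 fold change of -0.07 (95% confidence interval -0.19 to 0.04).

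The DNA upstream of the members with the largest changes, and of MGMT, is shown because these genes stand at both ends of the observed range. RefSeq promoters (GRCh38.p14) were matched by symbol for 37 of the 40 members, and the 250 bases before the start are printed for 6 of them. Capitals mark matches on either strand to 8 motifs. The GC box was searched as GGGCGG and the CCAAT box by the letters of its name. The motif of ETS factors was searched as CCGGAAG, the E box as CACGTG and the motif of NRF1 as the 10 letters that form the longest run of capitals in the NEIL3 sequence. The cyclic AMP response element was searched as TGACGTCA and the motif of E2F factors in both of its forms, TTTGGCGC and TTTCGCGC.
OGG1 (chr3:9749702-9749951, plus strand): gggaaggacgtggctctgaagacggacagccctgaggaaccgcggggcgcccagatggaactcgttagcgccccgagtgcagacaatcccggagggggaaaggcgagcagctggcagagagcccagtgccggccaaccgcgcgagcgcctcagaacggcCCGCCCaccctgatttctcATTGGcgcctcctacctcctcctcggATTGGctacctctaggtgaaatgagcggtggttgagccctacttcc
NEIL3 (chr4:177309624-177309873, plus strand): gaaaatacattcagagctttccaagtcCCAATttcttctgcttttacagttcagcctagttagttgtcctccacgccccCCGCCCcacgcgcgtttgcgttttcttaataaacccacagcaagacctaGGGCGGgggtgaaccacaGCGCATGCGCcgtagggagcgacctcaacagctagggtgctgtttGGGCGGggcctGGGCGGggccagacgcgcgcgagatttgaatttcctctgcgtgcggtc
XPC (chr3:14178602-14178851, minus strand): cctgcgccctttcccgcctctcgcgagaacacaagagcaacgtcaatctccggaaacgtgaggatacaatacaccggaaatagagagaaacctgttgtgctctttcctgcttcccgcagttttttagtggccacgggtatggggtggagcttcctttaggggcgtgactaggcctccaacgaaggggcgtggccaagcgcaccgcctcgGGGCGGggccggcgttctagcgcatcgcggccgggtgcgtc
MUTYH (chr1:45340441-45340690, minus strand): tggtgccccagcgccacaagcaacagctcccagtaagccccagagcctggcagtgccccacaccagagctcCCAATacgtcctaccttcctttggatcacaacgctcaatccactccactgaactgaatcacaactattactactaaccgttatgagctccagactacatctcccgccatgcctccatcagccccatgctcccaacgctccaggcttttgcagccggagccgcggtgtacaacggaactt
ERCC8 (chr5:60945071-60945320, minus strand): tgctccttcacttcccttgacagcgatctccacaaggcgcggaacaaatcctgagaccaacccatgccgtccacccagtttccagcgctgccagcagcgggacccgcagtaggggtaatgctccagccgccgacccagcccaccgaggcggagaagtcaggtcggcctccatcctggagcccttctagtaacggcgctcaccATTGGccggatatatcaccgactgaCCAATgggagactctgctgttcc
MGMT (chr10:129466991-129467240, plus strand): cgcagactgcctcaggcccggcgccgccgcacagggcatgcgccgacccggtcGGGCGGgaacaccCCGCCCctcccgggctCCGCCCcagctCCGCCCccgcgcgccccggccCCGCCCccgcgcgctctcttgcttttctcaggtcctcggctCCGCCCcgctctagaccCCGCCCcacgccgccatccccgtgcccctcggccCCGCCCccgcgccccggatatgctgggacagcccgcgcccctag

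In these windows OGG1 has 1 GC box and 2 CCAAT boxes, NEIL3 has 4 GC boxes, 1 CCAAT box and 1 NRF1 match, and XPC has 1 GC box. MUTYH has 1 CCAAT box and no GC box, and ERCC8 has 2 CCAAT boxes and no GC box. The GC box was present upstream of 26 of the 37 members (70.3%), against 42.3% of all 27305 promoters, and of 9 of 11 decreased and 1 of 4 increased members with a sequence. The CCAAT box was present in 17 of the 37 members (45.9%, against 33.0% of all promoters), in 7 of the 11 decreased and in 2 of the 4 increased members. The window of MGMT holds 8 GC boxes and 36 CpG dinucleotides, a count that 96.1% of all promoters do not exceed, while the median was 22 in members and 11 in all promoters. NTHL1 and APTX, both expressed, have 36 CpG dinucleotides in their windows as well. Of the other motifs, the ETS motif and the E box were each found in 7 members (8.82% and 6.49% of all promoters), the NRF1 motif in 3 (1.13%), the cyclic AMP response element in 2 (1.77%) and each E2F form in 1 (0.553% and 0.469%). A match is a run of letters only and was not tested as a binding site.

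Ratios of transcripts within a library, formed for 10 pairs of members that work as partners or on the same lesion, were looked at after the values had been seen. Most of these pairs join a gene that passed the test with one that did not, and ratios of other gene pairs were not computed, so the ratios are a description and partly restate the calls. The ratio of ERCC8 to ERCC6 was 3.04 to 4.63 with vehicle and 4.78 to 5.39 with LLY-283. Overlap was found for TDP2 to TDP1 (1.66 to 1.84 and 1.60 to 1.83), MSH3 to MSH6 (0.146 to 0.193 and 0.137 to 0.149) and PARP1 to PARP2 (2.61 to 2.73 and 2.33 to 2.67). Such ratios show that 2 transcripts changed unequally, not which of them changed.

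Further factors of the same pathways, 43 genes listed by role, were all tested, and 6 were decreased and 5 increased (25.6%, against 26.2% of all genes). Their median log2 fold change was -0.008. RPA3, a subunit of the protein that coats single-stranded DNA, had the smallest p-value among the decreases. RPA3 was at 177.62, 170.28, 175.90 and 184.07 TPM with vehicle and at 156.61, 155.10, 156.30 and 147.56 TPM with LLY-283 (log2 fold change -0.20, standard error 0.033, adjusted p = 0.00218). CUL4B, a cullin of the DDB1 ubiquitin ligases, had the smallest p-value among the increases, with 79.27, 74.86, 81.09 and 77.21 TPM against 94.77, 90.52, 98.43 and 91.29 TPM (log2 fold change 0.26, standard error 0.038, adjusted p = 0.00117). For neither gene did the groups overlap. The other decreases were APEX2, PCNA, EXO1, RFC3 and MBD4, and the other increases PARG, XAB2, USP7 and ASCC3. By role, 2 of 12 genes of repair synthesis were decreased and none increased, and of 18 nucleotide excision factors 1 was decreased and 3 were increased. No gene of this list passed 1.5-fold.

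How firmly the 16 calls hold differs between genes. NEIL3, OGG1, SMUG1, PMS1, XPC and ERCC8, 6 genes in all, passed under each of the 20 alternatives tried, which were 12 other settings and the removal of each library in turn. With MPG, TDP2 and DDB2, 9 genes passed whichever library was removed. XPA passed under 2 of the alternatives, ERCC2 under 7, ERCC3 under 10 and DDB1 and UVSSA under 14 each. With values corrected for GC content and transcript length and a replicate block added, 6 members were decreased and 5 increased, against 25.3% of all genes. The longest transcripts of decreased members had a median GC content of 51.0%, of increased members 48.6% and of members that did not pass 46.2%, against 47.7% for all genes tested. Whether base composition had a part in the changes was not tested beyond this correction, which also sets the libraries to a common mean. Of the 16 genes, 13 overlap another protein-coding or long noncoding gene. The strandedness of the counting is not given in the sources used here, so reads from both strands may not be told apart there. For NEIL3, XPC, DDB2, ERCC2, ERCC8 and UVSSA, the overlapping genes were listed at a mean of 0.80 TPM or less. For SMUG1, OGG1, MUTYH, MPG, PMS1, DDB1 and ERCC1, an overlapping gene was at 6.12 TPM or more.

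**Figure D4:**
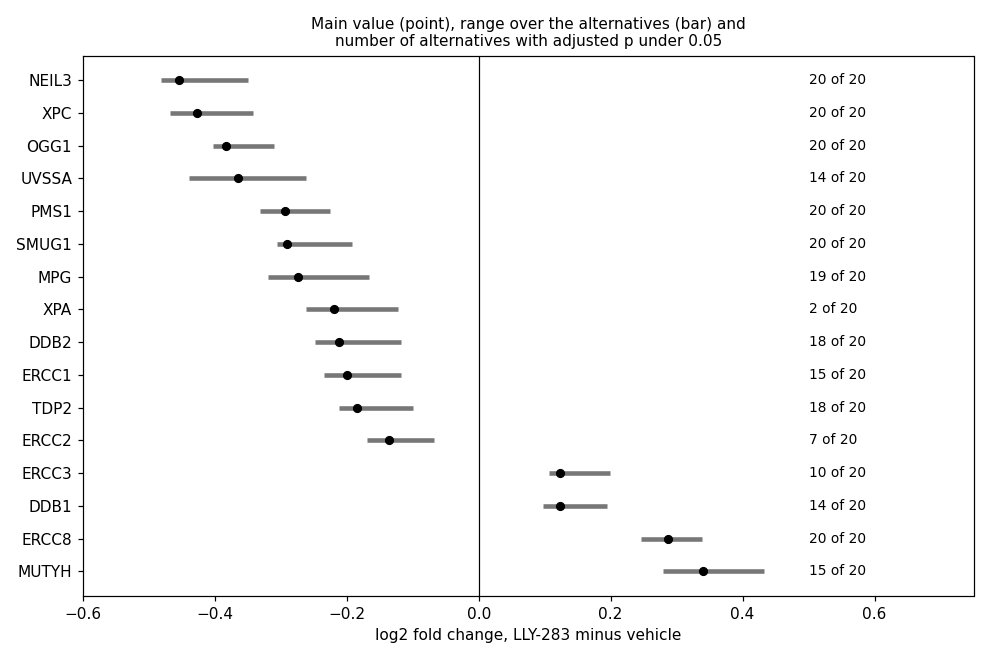
Log2 fold change of the 16 passed members under the main analysis (point), its range over the 20 alternatives (bar) and, at the right, the number of alternatives in which the adjusted p-value stayed under 0.05. No bar crosses 0. XPA (2 of 20) and ERCC2 (7 of 20) passed least often.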

How the data were processed

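RNAseq was measured in 8 U251 libraries, 4 given vehicle and 4 given LLY-283 (100 nM, 24 h). Poly(A) RNA was captured with oligo-dT beads. The TPM values that the authors deposited, per gene and library, came from RSEM with GENCODE annotation, after adapter trimming (Cutadapt 1.18) and alignment by STAR to GRCh38. The submitters' processing notes name STAR 2.7.0f and RSEM 1.3.1, and the paper names later versions of both. Read counts were not analysed here, so count tests were not run. TPM removes transcript length and depth but not differences in library composition.

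Genes averaging 1 TPM or more over the 8 libraries (14478) were kept, values were taken as log2(TPM + 0.1), and the contrast of LLY-283 against vehicle was fitted in limma 3.58.1 (R 4.3.3), with eBayes moderation along an intensity trend and no term for replicate number. P-values are two-sided and adjusted by the Benjamini-Hochberg method over all genes tested. Fold changes are on this log2 scale, which understates changes of low genes. The methods of the paper also use limma, but start from a filtered matrix of raw counts, so the calls here are not those of the paper. Values in every library are given for members with an adjusted p-value under 0.05 and for the smallest p-value of each role, and among the further factors for the smallest p-value in each direction; other names were added after values were seen. The members, lists and tests were chosen with earlier results of these data known. The alternatives were pseudocounts of 0.5 and 1, filters at 5 TPM or none, quantile normalization, median-of-ratios scaling, eBayes untrended or robust, a replicate block, correction for GC content and length by splines with 4 degrees of freedom (alone or with the block), omission of mitochondrial genes, and omission of each library in turn. The spline correction was fitted in each library with its own intercept, so it also brings the libraries to a common mean log2 level. Positions, overlaps, lengths and GC content were read from the GENCODE 44 annotation (GRCh38), where 14457 tested genes were found. The comparison was tested on simulated data. The labels name no batch, and nothing says how far the cultures were independent beyond their label as biological replicates, so p-values measure the spread between these libraries.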

Additional observations from a re-analysis of the deposited data

Results flagged for a closer look

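In 84 groups of 4 libraries (39 members, RPA3, CUL4B and the mitochondrial share), 8 groups had 1 library far from the other 3, by Dixon's test at 95%; chance alone gives about 1 in 20. With vehicle these were XRCC1 in replicate 3 (41.75 TPM, the highest), XPC in replicate 2 (21.54 TPM, the highest) and RAD23B in replicate 4 (132.09 TPM, the lowest). With LLY-283 they were MSH6 in replicate 2 (89.02 TPM, the highest), ERCC5 in replicate 1 (17.36 TPM, the highest), UNG in replicate 4 (78.51 TPM, the highest), RPA3 in replicate 4 (147.56 TPM, the lowest) and the share of TPM from mitochondrial genes in replicate 4 (7.19%, the lowest). For XPC and RAD23B the vehicle range was narrow, so the gap is small in TPM.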

How the results depend on the processing

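Of the 12 decreased and 4 increased members, none changed direction under the 20 alternatives. The number of increased members was 1 without a filter on low values, where 9.44% of all genes passed in either direction, and 2 with eBayes without a trend (23.7% of all genes). Under quantile normalization 8 further factors and 1871 of all genes were increased, and the members' median log2 fold change was -0.053. With median-of-ratios scaling 3 further factors were decreased and 9 increased, 1927 of all genes were increased, and the members' median was -0.034. With the GC content and length trend removed, 7 members, 2 further factors and 1602 of all genes were decreased, 10 further factors and 2742 of all genes were increased, and the members' median became 0.0021 (all genes 0.03). With that removal and the replicate block together, these were 6, 1 and 1377 decreased, 12 and 2276 increased, and 0.0021. With mitochondrial genes left out the median was -0.087. With each library left out in turn, 8 to 13 members were decreased and 1 to 4 increased, 4 to 8 further factors were decreased and 3 to 6 increased, 1889 to 2659 of all genes were decreased and 888 to 1508 increased, and the members' median ran from -0.106 to -0.062. The cause of these shifts was not tested.

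Values near 0 changed sign in some members that did not pass. Under quantile normalization PMS2 had 0.023 and ERCC6 0.025, and with median-of-ratios scaling XRCC1 had 0.0088, PMS2 0.032 and RAD23B 0.042. With the GC content and length trend removed, with or without the block, the values were 0.044 for UNG, 0.060 for XRCC1, 0.048 for PMS2, 0.060 for RAD23B, 0.0021 for ALKBH2 and 0.042 for ALKBH3. Over the libraries left out, NTHL1 ranged from -0.051 to 0.047, PMS2 from -0.037 to 0.021, RAD23B from -0.024 to 0.010 and POLB from -0.014 to 0.055.

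Replicate numbers are shared between the groups, but same-numbered libraries did not deviate together (correlations of -0.041, 0.032, -0.002 and -0.085). Differently numbered pairs ranged from -0.213 to 0.201. With 4 libraries per group, such correlations cannot show whether same-numbered cultures were handled together, so pairing is unknown. With the replicate block, 10 members were decreased and 3 increased, and 2201 and 1095 of all genes. Depth is unknown, so a gene listed at 0 cannot be told from one under the detection limit.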
